A study of Mus musculus with 18 samples.

Results

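The late cornified envelope (Lce) genes examined were the 6 Lce3 genes Lce3a, Lce3b, Lce3c, Lce3d, Lce3e and Lce3f and the 4 Lce1 genes Lce1g, Lce1i, Lce1l and Lce1m. They were taken by gene symbol, from a choice made with earlier results of these data known, and make up 10 of the 21 Lce genes and of the 23951 genes of the deposited table. RNA was sequenced from 18 libraries of cells sorted from ear skin at day 7, with 3 mice in each of 6 groups. The DKO* mice carried floxed JunB and c-Jun (JunB f/f c-Jun f/f), the K5-Cre-ERT transgene and the mT/mG reporter. The control mice (Co) carried K5-Cre-ERT, the same reporter, and JunB and c-Jun that were wild type or heterozygous (+/f). All mice were 8 weeks old, of mixed background, and received 4 daily injections of 2 mg tamoxifen. K5-Cre-ERT acts in keratin 5-positive cells, so that mutant cells became GFP positive and cells that had not recombined stayed Tomato positive (Tom). The sorted cells were bulge hair follicle stem cells (HF-SCs, CD45- CD49f high CD34+) and basal keratinocytes (b-KCs, CD45- CD49f high CD34-). Each cell type thus gave 3 groups, named Co, GFP and Tom after the cell type. Co libraries came from mice 810, 825 and 828, and all 4 DKO* populations came from mice 814, 815 and 817.

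Late cornified envelope proteins are small, cysteine-rich proteins that transglutaminases cross-link to the inner face of the cell membrane as keratinocytes turn into corneocytes. Their genes lie in the epidermal differentiation complex beside those for involucrin, loricrin and the small proline-rich proteins. Lce1 genes are known as genes of normal, unperturbed epidermis, whereas LCE3 genes are low in normal human skin and are known to be induced in psoriatic plaques and after barrier injury. A deletion of LCE3B and LCE3C is a known psoriasis risk factor in humans. JunB and c-Jun are subunits of the AP-1 transcription factor.

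In the NCBIM37 (mm9) assembly all 10 genes lie on chromosome 3. The GENCODE vM1 annotation has an entry of that name for 8 of them, each with 2 exons. Along the chromosome the order was Lce1g, Lce1i and Lce1l, then Lce3a to Lce3f, then Lce1m. Lce1m, at chr3:92821729-92822982 on the minus strand, thus lies apart from the other 3 Lce1 members, beyond the Lce3 block. Lce3a, the first of that block, is at chr3:92729213-92730152 on the minus strand, and Lce3f, the last, is at chr3:92796148-92797347 on the plus strand. The RefSeq promoter table (GRCm38.p6) held a sequence for all 10 members. The 80 bases before the annotated start are printed for a divergent Lce3 gene (Lce3a), for the most similar pair of Lce3 genes (Lce3d and Lce3e), for the most similar pair of Lce1 genes (Lce1g and Lce1i) and for Lce1m. Capitals mark a TATA-like run of 6 bases.
Lce3a: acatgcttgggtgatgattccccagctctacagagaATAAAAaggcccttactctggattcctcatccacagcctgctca
Lce3d: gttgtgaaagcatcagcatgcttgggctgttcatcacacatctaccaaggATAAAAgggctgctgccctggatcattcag
Lce3e: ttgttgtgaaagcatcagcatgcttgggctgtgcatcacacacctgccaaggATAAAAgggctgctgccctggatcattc
Lce1g: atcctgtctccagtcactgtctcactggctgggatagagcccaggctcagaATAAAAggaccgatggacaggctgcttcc
Lce1i: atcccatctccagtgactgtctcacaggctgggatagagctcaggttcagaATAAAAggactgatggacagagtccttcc
Lce1m: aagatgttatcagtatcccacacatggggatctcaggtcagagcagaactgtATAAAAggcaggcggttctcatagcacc
In GRCm38.p6 these windows are chr3:92926231-92926310 (minus strand, Lce3a), chr3:92957310-92957389 (plus strand, Lce3d), chr3:92966981-92967060 (plus strand, Lce3e), chr3:92752339-92752418 (minus strand, Lce1g), chr3:92778900-92778979 (minus strand, Lce1i) and chr3:93019062-93019141 (minus strand, Lce1m). The capital run stood between 45 and 11 bases before the start in 6 of 6 Lce3 and 4 of 4 Lce1 promoters, against 2.13% of 32851 promoters, and it was chosen after the sequences had been read. The promoters, each from 250 bases before to 50 bases after the start, were 62.0% to 86.0% identical among the Lce3 members and 47.3% to 86.0% among the Lce1 members. Pairs of an Lce3 and an Lce1 promoter were 23.3% to 63.7% identical (median 60.3%), so that the low end of both ranges lies within theirs. Over these 300 bases the AP-1 motif TGANTCA, searched on both strands, was present in 0 of 6 Lce3 and 0 of 4 Lce1 promoters and in 7.81% of all promoters. The Grainyhead-like motif AACCGGTT was also present in 0 of 6 and 0 of 4, and in 0.146% of all promoters. These counts say only that the letters are not in the windows searched.

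The values are FPKM, read counts scaled to transcript length and library size, so that levels of different genes can be set side by side. From the steps between low FPKM values of genes with 1 annotated transcript, each library was worth 16539700 to 26295300 reads, and 76.0% to 79.7% of these values came to within 0.1 of whole reads. On the Lce3a transcript of 545 bases 3 reads were worth 0.209 to 0.333 FPKM. Intervals and floors of this kind cover counting error only. The 2 targeted genes were lowest in the mutant fractions and lower in Tom cells than in Co as well. Jun stood at 835 to 1086 FPKM in HF-SC Co, 30.4 to 88.4 in HF-SC GFP and 308 to 614 in HF-SC Tom, and at 876 to 1000 FPKM in b-KC Co, 29.6 to 65.4 in b-KC GFP and 163 to 400.4 in b-KC Tom. Junb stood at 436 to 463, 38.6 to 77.5 and 251 to 402 FPKM in the HF-SC groups and at 737 to 772, 37.2 to 72.2 and 208 to 397 FPKM in the b-KC groups. Krt14, a defining basal keratin, was listed at 0 in 3 libraries (b-KC GFP of mouse 817 and b-KC Tom of mice 814 and 817) and at 2085 to 11448 FPKM in the other 15, and the control HF-SCs of mouse 828 have a 0 for Krt15, so that a listed 0 can be a failed estimate. In bulk libraries of this kind, fewer expressing cells and less RNA per cell cannot be told apart. Reads shared between Lce paralogs are a further limit, since reads were allowed up to 20 hits. Of the 51-base windows of each transcript, those found in another coding transcript were 46.1% for Lce3f, 34.8% for Lce3c, 17.0% for Lce3a, 11.7% for Lce3b, 22.9% for Lce1i, 17.5% for Lce1g and 8.71% for Lce1l. Lce1m shared none (0%), so that its values are the least exposed to this among these 8 genes. Only exact matches were counted, while the alignment allowed 2 mismatches, and Lce3d and Lce3e had no transcript of that name to compare. These shares are therefore lower bounds.

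Lce3 transcripts were low or listed at 0 in both control populations and were above 0 in every DKO* library, whereas Lce1m was lower in every DKO* library than in any Co library. Differences were tested with limma on log2(FPKM + 1) across the 12751 genes that reached 1 FPKM in 3 or more of the 18 libraries, and all 10 members met this filter. Of the 6 Lce3 genes, 5 reached 1 FPKM in 0 of 6 Co libraries and Lce3c in 2 of 6, so that all 6 passed the filter through the DKO* libraries in which they are higher. Their calls, p-values, counts and medians against Co are therefore given as descriptions, here and below. Genes were taken to have risen or fallen at a Benjamini-Hochberg adjusted p under 0.01. In HF-SC GFP against HF-SC Co, 3 of 6 Lce3 genes rose and 1 of 4 Lce1 genes fell, where 13.0% of all tested genes rose and 12.3% fell. The 3 Lce3 calls were each lost when any 1 of mice 810, 825, 828, 814 or 815 was left out. With no filter on low values (19924 genes), Lce3a was the 1 Lce3 gene past the test there. In HF-SC Tom against HF-SC Co, 0 of 6 Lce3 genes rose and 2 of 4 Lce1 genes fell, where 15.7% of all genes rose and 13.9% fell. In b-KC GFP against b-KC Co (12.5% of all genes rose and 12.0% fell) and in b-KC Tom against b-KC Co (15.4% and 15.3%), Lce1m alone of the 10 members passed the test, and it fell in both. The median log2 difference of the 6 Lce3 members was 3.12 for GFP and 1.93 for Tom cells among HF-SCs, and 1.91 and 2.02 among b-KCs, beside medians of all tested genes between -0.05 and -0.02. That of the 4 Lce1 members was -0.47, -1.72, -0.98 and -1.44 in the same order. The GFP and Tom comparisons share their Co libraries, and the fractions share their mice. Which fraction gave more calls depended on the fit. With only the compared groups fitted, 0 members passed for GFP HF-SCs and 7 for Tom HF-SCs (21.1% and 15.0% of all genes). Among b-KCs, 1 member passed for GFP cells and 8 for Tom cells (18.8% and 37.4% of all genes).

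**Figure D1:**
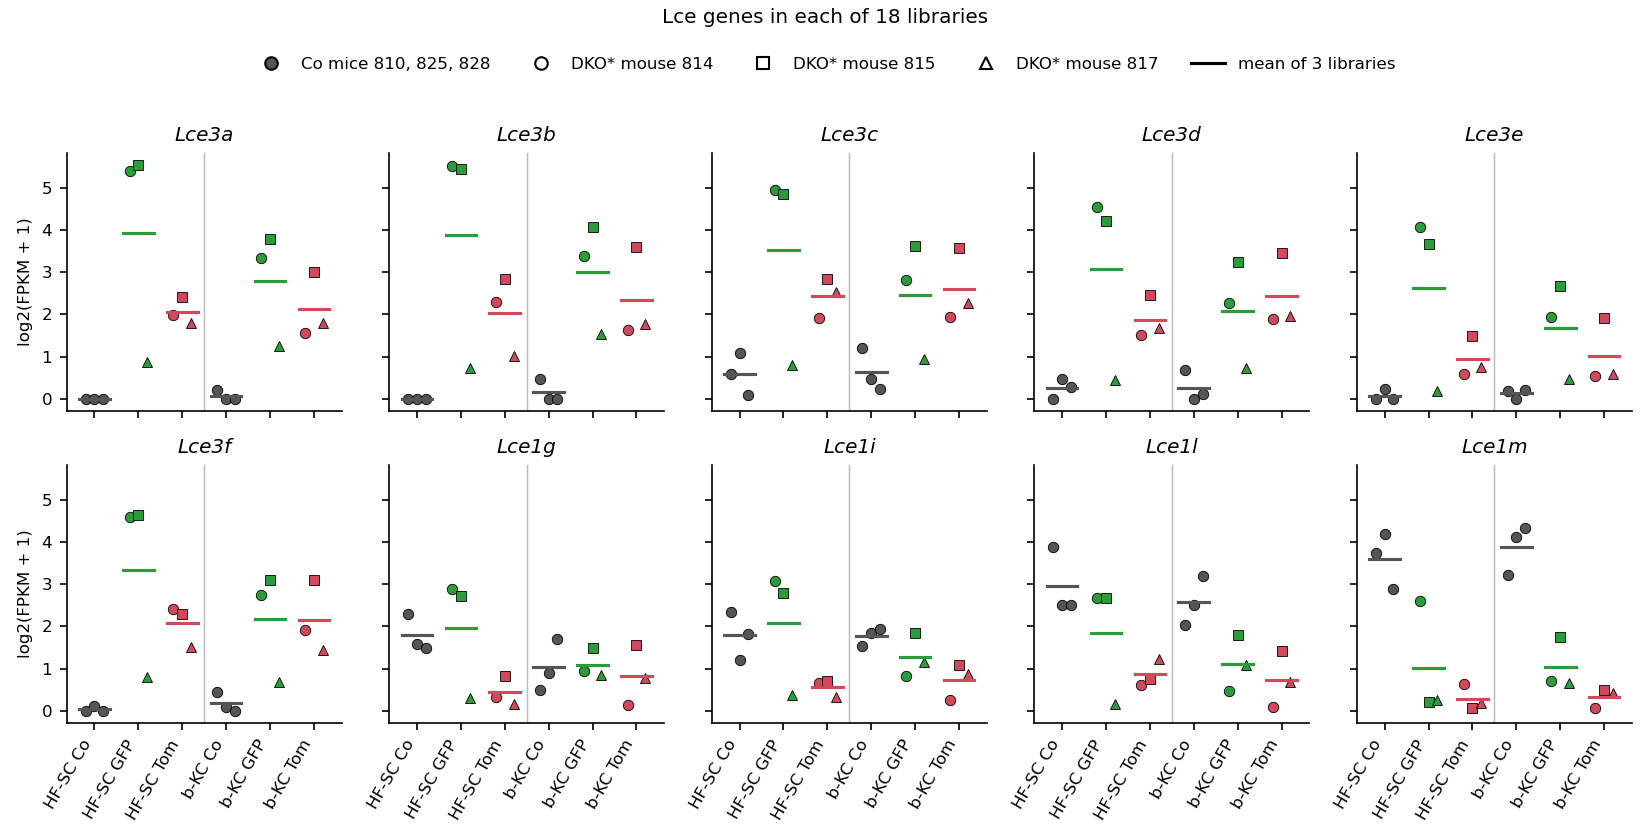
Level of each Lce member in each of the 18 libraries, as log2(FPKM + 1), by group (grey Co, green GFP, red Tom; the marker gives the DKO* mouse and the bar the mean of 3 libraries). The Lce3 genes sit near 0 in Co and highest in the GFP HF-SCs of mice 814 and 815, the 2 GFP libraries of mouse 817 (triangles) sit low, and Lce1m is higher in each Co library than in any DKO* library, with HF-SC GFP of mouse 814 (5.06 FPKM) nearest to Co.

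The Lce3 genes are described first, with the values of Co mice 810, 825 and 828 and of DKO* mice 814, 815 and 817 always given in that order. Lce3a, which rose in HF-SC GFP, was listed at 0 FPKM in all 3 HF-SC Co libraries. It stood at 41.0, 45.5 and 0.843 FPKM in HF-SC GFP and at 2.97, 4.37 and 2.47 FPKM in HF-SC Tom. In b-KCs it stood at 0.157, 0 and 0 FPKM in Co, at 9.02, 12.7 and 1.37 FPKM in GFP and at 1.98, 7.02 and 2.48 FPKM in Tom. Every DKO* library was thus above every Co library of its cell type, while mouse 817 was far below the other 2 mice in both GFP fractions. The HF-SC GFP values corresponded to about 499.6, 555 and 10.9 reads. The log2 difference of Lce3a from Co was 3.94 (SE 0.909, adjusted p = 0.00301, a call lost in 6 of 15 alternatives) in HF-SC GFP and 2.07 (SE 0.909, adjusted p = 0.0768) in HF-SC Tom. In b-KCs it was 2.71 (SE 0.909, adjusted p = 0.0263) in GFP and 2.06 (SE 0.909, adjusted p = 0.0754) in Tom.

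Lce3b was listed at 0 in all 3 HF-SC Co libraries and stood at 44.3, 42.1 and 0.675 FPKM in HF-SC GFP and at 3.88, 6.10 and 1.04 FPKM in HF-SC Tom. Its b-KC values were 0.384, 0 and 0 FPKM in Co, 9.37, 15.7 and 1.93 FPKM in GFP and 2.10, 11 and 2.43 FPKM in Tom. Its order over the libraries was close to that of Lce3a, with no overlap between DKO* and Co. It rose in HF-SC GFP (log2 difference 3.89, SE 0.986, adjusted p = 0.00569), a call lost in 7 of 15 alternatives. In the other 3 populations the log2 difference from Co was 2.05 to 2.84 with adjusted p of 0.0309 to 0.105.

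Lce3f was listed at 0, 0.0876 and 0 FPKM in HF-SC Co and stood at 22.9, 23.9 and 0.757 FPKM in HF-SC GFP and at 4.35, 3.86 and 1.84 FPKM in HF-SC Tom. Among b-KCs the gene stood at 0.353, 0.0723 and 0 FPKM in Co, at 5.71, 7.59 and 0.616 FPKM in GFP and at 2.78, 7.55 and 1.74 FPKM in Tom. Again every DKO* library was above every Co library of its cell type. It rose in HF-SC GFP (log2 difference 3.30, SE 0.808, adjusted p = 0.00448), a call lost in 7 of 15 alternatives. The log2 difference was 1.98 to 2.03 in the other 3 populations (adjusted p = 0.0526 to 0.0579).

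Lce3c was the Lce3 member with the highest Co values. It stood at 0.519, 1.14 and 0.0728 FPKM in HF-SC Co, at 29.8, 27.6 and 0.746 FPKM in HF-SC GFP and at 2.79, 6.14 and 4.81 FPKM in HF-SC Tom. In b-KCs it stood at 1.30, 0.391 and 0.174 FPKM in Co, at 6.10, 11.2 and 0.917 FPKM in GFP and at 2.84, 11 and 3.85 FPKM in Tom. The GFP library of mouse 817 lay within the Co range in both cell types, and the Tom libraries did not overlap with Co. The log2 difference in HF-SC GFP was 2.93 (SE 0.880, adjusted p = 0.0154), past 0.05 and not past 0.01.

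Lce3d stood at 0, 0.382 and 0.22 FPKM in HF-SC Co, at 22.2, 17.6 and 0.376 FPKM in HF-SC GFP and at 1.84, 4.48 and 2.22 FPKM in HF-SC Tom. Its b-KC values were 0.615, 0 and 0.0875 FPKM in Co, 3.79, 8.46 and 0.672 FPKM in GFP and 2.70, 9.96 and 2.89 FPKM in Tom. In b-KCs the Tom and GFP values overlapped, and in HF-SC GFP mouse 817 overlapped with Co. The log2 difference was 2.82 (SE 0.831, adjusted p = 0.0138) in HF-SC GFP and 2.16 (SE 0.831, adjusted p = 0.0441) in b-KC Tom.

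Lce3e was the lowest of the Lce3 genes by its mean over all libraries. It stood at 0, 0.176 and 0 FPKM in HF-SC Co, at 15.8, 11.6 and 0.139 FPKM in HF-SC GFP and at 0.498, 1.82 and 0.703 FPKM in HF-SC Tom. Among b-KCs the gene stood at 0.142, 0 and 0.161 FPKM in Co, at 2.83, 5.34 and 0.387 FPKM in GFP and at 0.466, 2.76 and 0.499 FPKM in Tom. The log2 difference from Co was 2.56 (SE 0.761, adjusted p = 0.0145) in HF-SC GFP and 0.87 (SE 0.761, adjusted p = 0.374) in HF-SC Tom. Over the 6 Lce3 genes, every Tom library was above every Co library of its cell type for 6 of 6 genes in HF-SCs and for 6 of 6 in b-KCs. This held for 24.4% and 31.6% of all tested genes. In GFP cells it held for 3 of 6 Lce3 genes in HF-SCs and 5 of 6 in b-KCs, beside 24.7% and 28.0% of all genes.

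Mouse 817 stood apart from the other DKO* mice in both GFP fractions. Its summed Lce3 level was 3.53 FPKM in HF-SC GFP, against 176 and 168 FPKM in mice 814 and 815, and 5.89 FPKM in b-KC GFP, against 36.8 and 61.1 FPKM. Its Tom libraries, at 13.1 FPKM in HF-SCs and 13.9 FPKM in b-KCs, were close to those of mouse 814 (16.3 and 12.9 FPKM). Without mouse 817, 6 of 6 Lce3 genes rose in GFP cells and 5 of 6 in Tom cells, in HF-SCs and in b-KCs alike. In those fits 18.5% of all genes rose in GFP and 23.9% in Tom HF-SCs, and 23.2% in GFP and 21.6% in Tom b-KCs, so that more genes passed overall as well. Leaving out any of mice 810, 825, 828, 814 or 815 instead left 0 or 1 member past the test in HF-SC GFP. In those fits 13.0% to 18.3% of all genes passed there, against 25.4% with all mice, so that fewer genes passed in general as well. Over the alternatives, the HF-SC GFP call of Lce3a was lost in 6 of 15 and those of Lce3b and Lce3f in 7 of 15 each, with the fit of only these groups among them. With the mouse as a random block, 5 of 6 Lce3 genes rose in HF-SC GFP, beside 13.6% of all genes. Summed suprabasal keratin and desmosome markers were also lowest in mouse 817 among the HF-SC GFP libraries (2563 FPKM against 3810 and 3657), and other cornified envelope genes summed to 1736 FPKM there against 4516 and 4359. The part of these in the Lce3 values was not tested.

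The Lce1 genes differed among themselves. Lce1m stood at 12.3, 17.3 and 6.36 FPKM in HF-SC Co, at 5.06, 0.153 and 0.192 FPKM in HF-SC GFP and at 0.551, 0.0434 and 0.133 FPKM in HF-SC Tom. In b-KCs it stood at 8.30, 16.2 and 19.2 FPKM in Co, at 0.634, 2.33 and 0.590 FPKM in GFP and at 0.0538, 0.405 and 0.346 FPKM in Tom. Every DKO* library was below every Co library, and Lce1m was the one member that fell in all 4 DKO* populations. The log2 difference from Co was -2.58 (SE 0.529, adjusted p = 0.00127) in HF-SC GFP and -3.31 (SE 0.529, adjusted p = 0.00013) in HF-SC Tom. The HF-SC GFP call was lost without mouse 825 (-2.29), without mouse 815 (-2.18) and when only these groups were fitted. In b-KCs it was -2.85 (SE 0.529, adjusted p = 0.00079) in GFP and -3.55 (SE 0.529, adjusted p = 8.96e-05) in Tom. The value corresponded to 1.00 read in the Tom HF-SCs of mouse 815 and in the Tom b-KCs of mouse 814, whereas the 6 Co libraries held 135.9 to 343 reads.

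Lce1l stood at 13.6, 4.71 and 4.65 FPKM in HF-SC Co, at 5.35, 5.33 and 0.126 FPKM in HF-SC GFP and at 0.541, 0.681 and 1.33 FPKM in HF-SC Tom. Its b-KC values were 3.09, 4.68 and 8.19 FPKM in Co, 0.377, 2.46 and 1.12 FPKM in GFP and 0.0704, 1.66 and 0.603 FPKM in Tom. Lce1l fell in HF-SC Tom (log2 difference -2.10, SE 0.594, adjusted p = 0.00981), a call that was lost in 9 of 15 alternatives, among them the mouse as a random block and leaving out any of mice 810, 825, 828, 814 and 815. The log2 difference was -1.85 (SE 0.594, adjusted p = 0.0191) in b-KC Tom. HF-SC GFP overlapped with Co for this gene, and the other 3 DKO* populations lay below Co.

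Lce1g stood at 3.86, 1.97 and 1.82 FPKM in HF-SC Co, at 6.41, 5.57 and 0.228 FPKM in HF-SC GFP and at 0.262, 0.784 and 0.126 FPKM in HF-SC Tom. Among b-KCs the gene stood at 0.421, 0.862 and 2.23 FPKM in Co, at 0.932, 1.79 and 0.816 FPKM in GFP and at 0.102, 1.92 and 0.712 FPKM in Tom. Mice 814 and 815 were above all HF-SC Co libraries in HF-SC GFP, and all 3 mice were below them in HF-SC Tom. Lce1i, whose promoter is most like that of Lce1g among the Lce1 members, stood at 4.07, 1.32 and 2.53 FPKM in HF-SC Co, at 7.48, 5.86 and 0.288 FPKM in HF-SC GFP and at 0.579, 0.624 and 0.265 FPKM in HF-SC Tom. In b-KCs Lce1i stood at 1.89, 2.60 and 2.81 FPKM in Co, at 0.761, 2.59 and 1.22 FPKM in GFP and at 0.194, 1.11 and 0.829 FPKM in Tom. Neither gene passed the test in any comparison. The log2 difference in HF-SC GFP was 0.18 for Lce1g (95% interval -0.98 to 1.34) and 0.28 for Lce1i (-0.82 to 1.39). In HF-SC Tom it was -1.34 for Lce1g (adjusted p = 0.0580) and -1.22 for Lce1i (adjusted p = 0.0687). All 4 Lce1 members lay below Co in every HF-SC Tom library, which held for 24.6% of all tested genes. In HF-SC GFP this held for 1 of 4 (28.0% of all genes), in b-KC GFP for 2 of 4 (31.0%) and in b-KC Tom for 3 of 4 (34.0%).

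**Figure D2:**
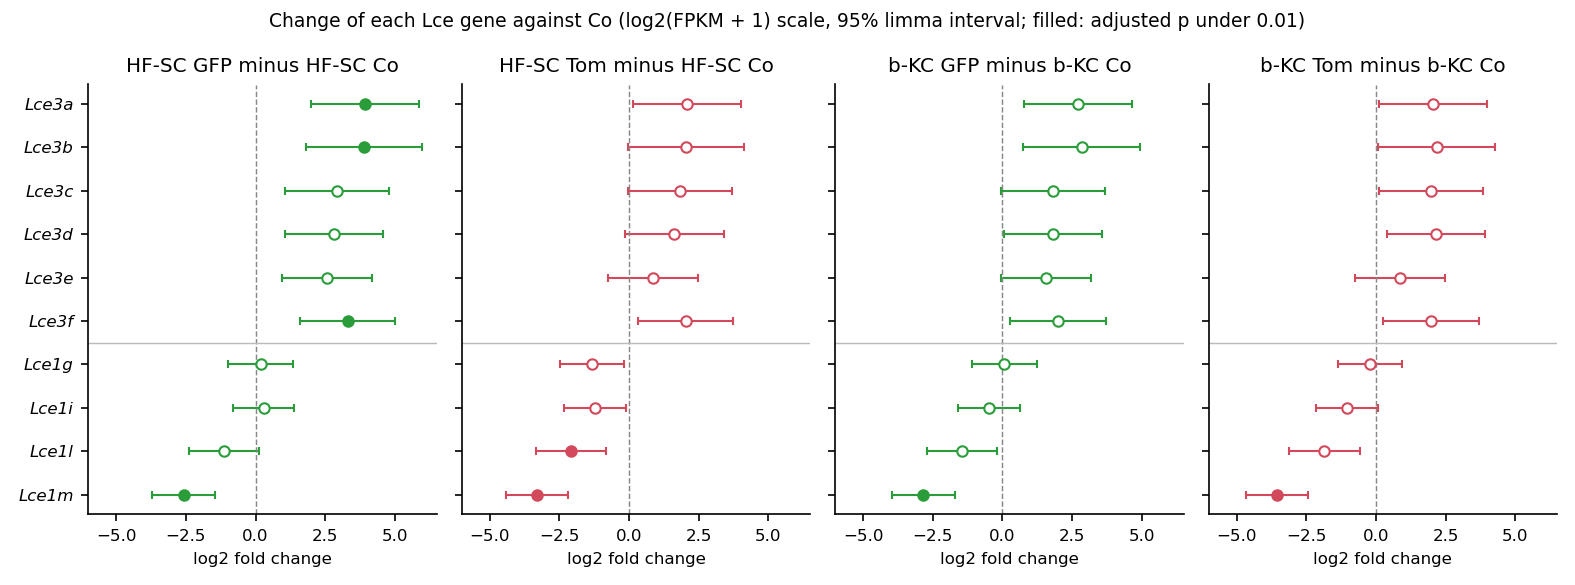
Difference of each member from Co on the log2(FPKM + 1) scale for the 4 DKO* populations, with 95% limma intervals over 3 libraries a group; filled points have an adjusted p under 0.01. All 6 Lce3 points are above 0 in each panel, and Lce1m is the one gene filled in all 4.

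The order of the 2 subfamilies differed between Co and DKO* libraries. All 6 Lce3 genes were below all 4 Lce1 genes in 5 of 6 Co libraries and above all 4 in 7 of 12 DKO* libraries. By median FPKM the order in HF-SC Co was Lce1m, Lce1l, Lce1i, Lce1g, Lce3c and Lce3d, with the other Lce3 genes at 0. In HF-SC GFP it was Lce3b, Lce3a, Lce3c, Lce3f, Lce3d and Lce3e, then Lce1i, Lce1g, Lce1l and Lce1m. In HF-SC GFP all neighbours in this order overlapped in range. In HF-SC Co, Lce1l did not overlap with Lce1i, nor Lce1g with Lce3c, and the other neighbours above 0 did. In b-KC Tom, Lce3e was ninth by median, below Lce1i, Lce1g and Lce1l. In b-KC Co, Lce1m at 8.30 to 19.2 FPKM did not overlap with the next gene, Lce1l, at 3.09 to 8.19 FPKM. The summed FPKM of the 6 Lce3 genes divided by that of the 4 Lce1 genes was 0.0153, 0.0706 and 0.0190 in HF-SC Co and 0.215, 0.0190 and 0.0130 in b-KC Co. Among DKO* HF-SCs it was 7.25, 9.95 and 4.24 in GFP and 8.44, 12.5 and 7.05 in Tom cells. Among DKO* b-KCs it was 13.6, 6.66 and 1.57 in GFP and 30.6, 9.66 and 5.58 in Tom cells. Lce1 was therefore the more abundant subfamily in 6 of 6 Co libraries and Lce3 in 12 of 12 DKO* libraries, mouse 817 included. This ratio is taken within a library and does not move with a rescaling of whole libraries. It stands as a description of these 6 mice, with no test. With all 14 Lce1 genes of the table in the denominator, the ratio was 0.00571 to 0.0316 in HF-SC Co and 1.16 to 2.39 in HF-SC GFP. On that scale the b-KC GFP library of mouse 817 was at 0.390, so that the Lce3 sum exceeded the Lce1 sum in 11 of the 12 DKO* libraries.

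**Figure D3:**
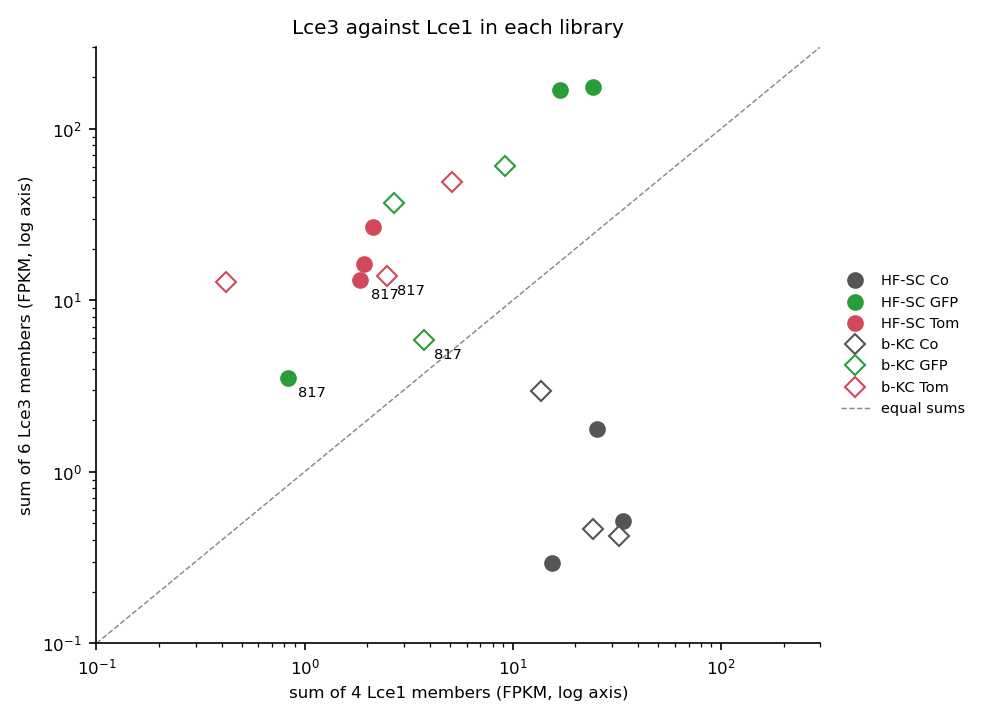
Summed FPKM of the 6 Lce3 members (vertical, log axis) against that of the 4 Lce1 members (horizontal, log axis) in each library (circles HF-SCs, diamonds b-KCs; grey Co, green GFP, red Tom; libraries of mouse 817 labelled). The 6 Co libraries lie below the line of equal sums and the 12 DKO* libraries above it.

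Over the 18 libraries, log2(FPKM + 1) of the Lce3 genes ran closely together, with Pearson r of 0.939 to 0.988 in 15 pairs. The Lce1 genes were looser, with r of 0.391 to 0.900 in 6 pairs, and pairs of 1 Lce3 and 1 Lce1 gene had r of -0.543 to 0.587 (24 pairs, median 0.140). These correlations are descriptions, since libraries share mice and the paralogs share reads.

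GFP and Tom cells were next compared within each cell type, to ask whether Lce levels differed between mutant and non-mutant cells of the same mice. In HF-SCs the summed Lce3 level in GFP was 10.8, 6.29 and 0.270 times that in Tom for mice 814, 815 and 817. For Lce1 it was 12.6, 7.93 and 0.449 times. Both subfamilies were thus higher in the GFP cells of mice 814 and 815 and lower in those of mouse 817. With limma, 0 of 10 members passed the test for HF-SC GFP against HF-SC Tom (0.902% of all genes were higher and 4.09% lower in GFP). The log2 difference of the Lce3 members was 1.10 to 1.87 and that of the Lce1 members 0.73 to 1.52, and the 95% interval for Lce3a was -0.06 to 3.80. At an unadjusted p under 0.05, 3 of the 10 members would be called, namely Lce3e, Lce1g and Lce1i, beside 2545 of the 12751 tested genes. Without mouse 817, 6 of 6 Lce3 and 2 of 4 Lce1 genes were higher in GFP than in Tom, where 6.06% of all genes were higher.

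In b-KCs the summed Lce3 level in GFP was 2.86, 1.24 and 0.424 times that in Tom, and for Lce1 it was 6.44, 1.80 and 1.51 times. The Lce1 sum was thus higher in GFP than in Tom in 3 of 3 mice and the Lce3 sum in 2 of 3. With limma, 0 of 10 members passed the test for b-KC GFP against b-KC Tom (0.361% of all genes were higher and 0.125% lower in GFP), and 0 of 10 had an unadjusted p under 0.05, beside 11.5% of all genes. The log2 difference ran from -0.35 for Lce3d (95% interval -2.12 to 1.41) to 0.71 for Lce1m (-0.42 to 1.83). When the mouse entered as a fixed term and only GFP and Tom libraries were fitted, 0 members passed in either cell type, beside 1.54% of all genes in HF-SCs and 0.0706% in b-KCs.

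**Figure D4:**
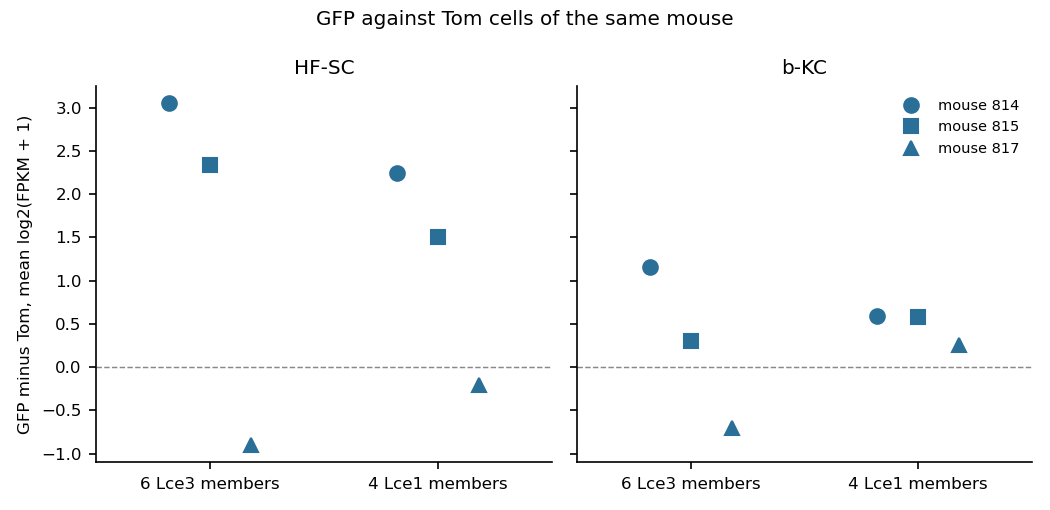
Difference between GFP and Tom cells of the same mouse in the mean log2(FPKM + 1) of the 6 Lce3 and of the 4 Lce1 members, for HF-SCs (left) and b-KCs (right), 1 point a mouse. For Lce3 the points of mice 814 and 815 are above 0 and that of mouse 817 is below 0 in both cell types.

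Between the 2 control populations, 0 of 10 members passed the test for HF-SC Co against b-KC Co, where 18.7% of all genes were higher and 19.3% lower in HF-SC Co. At an unadjusted p under 0.05 it was 0 of 10 as well, beside 57.5% of all genes. The log2 difference of the members was -0.28 for Lce1m to 0.75 for Lce1g. The response of HF-SCs was also set against that of b-KCs by interaction terms. For the GFP change 0 of 10 members passed (3.32% of all genes passed upward and 1.89% downward), and 0 of 10 had an unadjusted p under 0.05, beside 28.0% of all genes. The Lce3 change was 1.00 to 1.30 larger in HF-SCs on the log2 scale, and for Lce3a the 95% interval of 1.22 was -1.51 to 3.96. Without mouse 817, 2 Lce3 members passed upward, as did 9.01% of all genes. For the Tom change 0 of 10 passed (5.93% and 2.12%), 0 of 10 had an unadjusted p under 0.05 (29.0% of all genes), and the difference for Lce3a was 0.01 (95% interval -2.72 to 2.75).

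The other 11 Lce genes of the table, 10 of the Lce1 group and Lce6a, all met the filter. In 3 of the 4 comparisons with Co, 0 of 11 passed by limma, with 0 (HF-SC GFP), 2 (b-KC GFP) and 4 (b-KC Tom) of them at an unadjusted p under 0.05 (47.5%, 50.4% and 53.5% of all genes), and 1 of 11, Lce1c, fell in HF-SC Tom (log2 difference -2.03, SE 0.559, adjusted p = 0.00844), a smaller share than the 13.9% of all genes. Their median log2 difference was -0.03 for GFP and -1.18 for Tom cells among HF-SCs, and -0.27 and -0.82 among b-KCs. The 3 most abundant were Lce1a2, Lce1c and Lce1f. Lce1a2 stood at 10.8, 7.34 and 6.03 FPKM in HF-SC Co, at 15.5, 9.87 and 0.353 FPKM in HF-SC GFP and at 0.592, 1.33 and 1.90 FPKM in HF-SC Tom. Lce1c stood at 11, 8.50 and 3.85 FPKM, at 9.09, 5.55 and 0.465 FPKM and at 0.584, 1.16 and 1.39 FPKM in the same groups. Lce1f stood at 6.53, 1.94 and 2.80 FPKM, at 12.1, 9.90 and 0.293 FPKM and at 0.759, 1.38 and 1.08 FPKM. All 3 were within or above the Co range in the GFP HF-SCs of mice 814 and 815, and below it in those of mouse 817 and in HF-SC Tom. In b-KC Tom all 11 had a negative log2 difference, from -1.79 for Lce1a2 and Lce1c to -0.02 for Lce1k.

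**Figure D5:**
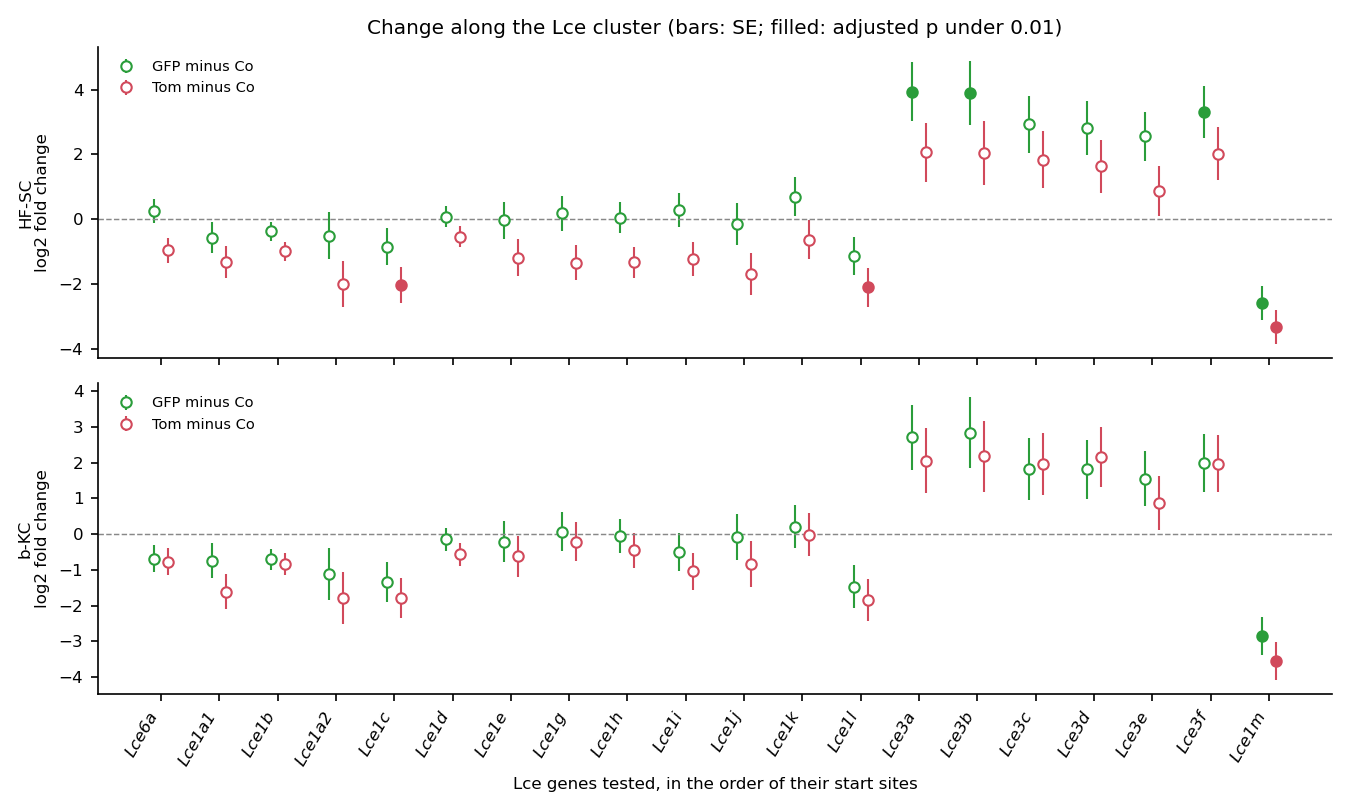
Difference from Co on the log2(FPKM + 1) scale of 20 Lce genes in the order of their start sites, for HF-SCs (top) and b-KCs (bottom), with SE bars; filled points have an adjusted p under 0.01. The 6 adjacent Lce3 genes lie above 0 in both panels, with Lce3e in Tom cells the nearest of them to 0 (0.87 and 0.88), and Lce1m, at the end of the row, is the lowest point in each panel.

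The Lce genes were then set beside the rest of the envelope. Of 37 other cornified envelope and epidermal differentiation complex genes, 34 were in the table and 28 met the filter. Among HF-SCs, 17 of these rose and 1 fell in GFP cells (13.0% and 12.3% of all genes), and 13 rose and 1 fell in Tom cells (15.7% and 13.9%). Among b-KCs, 11 rose and 4 fell in GFP cells (12.5% and 12.0%), and 12 rose and 6 fell in Tom cells (15.4% and 15.3%). Their median log2 difference was 2.70, 0.99, 0.98 and 0.75 in the same order. The 3 genes of this list with the largest rise in HF-SC GFP were Sprr2d, Sprr2e and Sprr2b, which encode small proline-rich proteins. Sprr2d stood at 0.644, 1.65 and 1.93 FPKM in HF-SC Co and at 1102, 1071 and 298 FPKM in HF-SC GFP (log2 difference 8.24, SE 0.754, adjusted p = 8.56e-07). Sprr2e rose by 7.00 (SE 0.676) and Sprr2b by 6.94 (SE 0.780) on the log2 scale. Sprr2d in mouse 817 was thus lower than in the other 2 mice and still far above Co. In the same library Lce3a, Lce3b and Lce3f were above Co at under 1 FPKM, and Lce3c, Lce3d and Lce3e lay within the Co range. Ivl, which encodes involucrin, an early scaffold of the envelope, rose in HF-SC GFP (3.03, SE 0.453, adjusted p = 9.25e-05) and passed in no other population, with log2 differences of 1.20 (HF-SC Tom), 0.55 (b-KC GFP) and -0.70 (b-KC Tom). Lor, which encodes loricrin, the main envelope protein of normal epidermis, fell in b-KC GFP (-2.48, SE 0.502, adjusted p = 0.00142, a call lost without mouse 828 and with a pseudocount of 0.1) and b-KC Tom (-3.41, SE 0.502, adjusted p = 8.06e-05). In HF-SCs its log2 difference was -0.35 in GFP and -1.56 in Tom, and neither passed.

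Markers of other cells were read beside these results. The 10 suprabasal keratinocyte markers, none of which was at 0 in any library, summed to 1550 to 1905 FPKM in HF-SC Co, 2563 to 3810 FPKM in HF-SC GFP and 1886 to 2531 FPKM in HF-SC Tom. In b-KCs they summed to 13768 to 16489 FPKM in Co, 7031 to 7387 FPKM in GFP and 5183 to 7179 FPKM in Tom. In HF-SC GFP 3 of 10 rose and 0 fell (13.0% of all genes rose), with Krt1 up by 2.84, Dsc1 by 2.45 and Krtdap by 1.84 on the log2 scale, and in b-KC GFP and b-KC Tom 0 of 10 rose while 4 and 6 fell (12.0% and 15.3% of all genes fell). The sum weights the most abundant markers, and the mean log2(FPKM + 1) of the same 10 was 5.99 to 6.05 in HF-SC Co, 5.95 to 6.82 in HF-SC GFP and 4.93 to 5.55 in HF-SC Tom, with mouse 817 lowest in HF-SC GFP. In b-KCs this mean was 8.36 to 8.64 in Co, 7.04 to 7.28 in GFP and 6.20 to 6.33 in Tom. The part of these markers in the Lce values was not tested. The 8 endothelial markers summed to 369 to 1121 FPKM in HF-SC Tom, with 8 of 8 higher than in Co by the test (15.7% of all genes), against 39.5 to 65.6 FPKM in HF-SC Co and 1.39 to 23.8 FPKM in HF-SC GFP. The HF-SC Tom values of the Lce genes therefore stand beside endothelial RNA, whose part was not tested, and in b-KC Tom this sum was 1.44 to 6.09 FPKM against 0.968 to 2.12 FPKM in b-KC Co. The 8 leukocyte markers summed to 91.0 to 806 FPKM in the DKO* libraries against 4.02 to 9.44 FPKM in Co. Cd74, the MHC class II invariant chain, made up most of this at 81.0 to 805 FPKM against 2.75 to 6.53 FPKM, and Ptprc, the gene for CD45, stood at 0 to 0.946 FPKM in all 18. The mean log2(FPKM + 1) of the 8 was 1.12 to 1.77 in DKO* and 0.379 to 0.714 in Co.

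The 7 sebaceous markers, none of them at 0 in any library, summed to 360, 433 and 143 FPKM in the GFP HF-SCs (mice 814, 815 and 817) against 122 to 153 FPKM in HF-SC Co, which is also 2 high libraries and 1 low one. Of the 6 tested, 0 passed in HF-SC GFP or HF-SC Tom by limma, while among b-KCs 1 fell in GFP and 3 in Tom cells (12.0% and 15.3% of all genes). The sum was 163 to 196 FPKM in HF-SC Tom, and in b-KCs it was 562 to 834 FPKM in Co, 246 to 849 FPKM in GFP and 162 to 397 FPKM in Tom. The 5 melanocyte markers summed to 16.5, 17.7 and 7.32 FPKM in HF-SC GFP against 3.68 to 5.98 FPKM in HF-SC Co, with 1 of 5 higher by the test (13.0% of all genes), and 0 of 5 passed in the other 3 comparisons with Co. The 6 fibroblast markers summed to 68.6, 120.5 and 19.4 FPKM in HF-SC GFP against 45.9 to 95.5 FPKM in HF-SC Co, and 0 of the 5 tested passed in any of the 4. The 8 basal keratinocyte markers summed to 16330 to 17632 FPKM in b-KC Co, 6507 to 10489 FPKM in b-KC GFP and 5955 to 16226 FPKM in b-KC Tom, sums that hold the Krt14 zeros, and 1 of 8 fell in b-KC GFP, close to the 12.0% of all genes. The part of these markers in the Lce values was likewise not tested.

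The genes whose pattern over the 18 libraries was most like the mean of the 6 Lce3 members, by Pearson r of log2(FPKM + 1), were Klk9 (0.955), Klk6 (0.946), Defb14 (0.933), Aldh1a3 (0.932) and Klk12 (0.926). Klk6, Klk9 and Klk12 encode kallikrein-related peptidases and Defb14 a beta-defensin. Klk6 stood at 0.306 ± 0.243 FPKM (SD, n = 3) in HF-SC Co and 48.5 ± 36.4 FPKM in HF-SC GFP, with a lowest value of 6.80 FPKM. The genes most like the mean of the 4 Lce1 members were G6b (0.894), Kprp (0.860), Sec14l4 (0.845), Cldn1 (0.832) and Tmem56 (0.831). Kprp, which encodes the keratinocyte proline-rich protein and lies in the same gene complex, stood at 14.2 ± 1.36 FPKM (SD, n = 3) in b-KC Co, 2.28 ± 1.03 FPKM in b-KC GFP and 1.12 ± 0.705 FPKM in b-KC Tom. Cldn1, which encodes a tight junction claudin, stood at 186 ± 9.39, 66.5 ± 4.30 and 46.8 ± 4.47 FPKM in the same groups. These likenesses were chosen by their size from all tested genes and carry no test.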

How the data were processed

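Cells were sorted from ear skin by flow cytometry, with dead cells and doublets excluded. The authors made cDNA with the SMART-Seq v4 kit and unstranded Nextera XT libraries, sequenced 51-base single-end reads, aligned them to NCBI37/mm9 with TopHat 2.0.10 (2 mismatches, 20 multihits) and used Cufflinks 2.2.1 per the labels. The deposited values are FPKM, with 23951 gene rows and 1 column a library. Without strand, antisense reads cannot be told apart.

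Groups follow the sample labels, and no library was left out. log2(FPKM + 1), which understates changes of low genes, was fitted with limma 3.58.1 (R 4.3.3, eBayes with a trend) as 6 group means over 18 libraries, for the 12751 genes that reached 1 FPKM in 3 or more libraries. Benjamini-Hochberg adjustment was made within each comparison. On simulated data with 12751 genes, 48 of 50 genes raised by 2 on the log2 scale, 32 of 50 raised by 1, 26 of 50 lowered by 1 and 2 of 12551 unchanged genes were called. These counts do not give the power for the Lce3 genes, whose spread was uneven between groups. For Lce3a the SD of log2(FPKM + 1) was 2.65 over the GFP HF-SCs and 0 over those of control mice. Its difference of 2.07 for Tom HF-SCs did not pass the test. Alternatives were another pseudocount, other filters, thresholds and fits, rescaled libraries, each mouse left out and the mouse as a block.

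Mouse numbers in the labels tie the fractions to the same animals. Deviations from group means of the same mouse correlated at 0.084 to 0.70. The fit used no block and treated the 18 libraries as independent, although each mouse gave more than 1 of them. Blocked results are given for the members where they change a count or call. Apart from Jun, Junb, Ivl and Lor, the calls of other genes were not examined with a block. The p-values measure the spread between libraries within groups, pooled over groups that share mice.

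The depth step used 7151 genes with 1 transcript in GENCODE vM1. Python 3.11.15, pandas 2.3.3, numpy 2.4.6, matplotlib 3.10.9 and Biopython 1.88 were used. The members, the lists and the 2 motifs were chosen with earlier results of these data known. Genes named were the members, Jun, Junb, the 3 most abundant other Lce genes, Ivl, Lor, up to 3 genes of largest change that passed per list in HF-SC GFP, and the 5 genes most like each subfamily. Krt14, Krt15, Ptprc, Lce1k and Lce6a were named after their values were seen.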

Additional observations from a re-analysis of the deposited data

How the results depend on the processing

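The number of members past the test against Co was 4 for GFP and 2 for Tom cells among HF-SCs, 1 for each among b-KCs, and 0 in the other 5 comparisons. The share of all genes past the test, given in parentheses after later counts, was 25.4%, 29.6%, 24.5% and 30.8% in these 4. With a pseudocount of 0.1 the counts were 6, 4, 4 and 4 (24.4%, 28.4%, 25.1% and 32.3%). With no filter it was 2 in HF-SC GFP (16.6%) and 1 in HF-SC Tom (21.3%), and with a filter of 1 FPKM in 6 libraries 1 in HF-SC Tom (28.1%). At an adjusted p under 0.05 it was 7 in HF-SC GFP (38.5%) and 3 in each b-KC comparison with Co (41.6% and 45.9%). In fits of only the groups compared it was 0 in HF-SC GFP (21.1%), 7 for Tom HF-SCs (15.0%) and 8 in b-KC Tom (37.4%). With the mouse as a random replicate block it was 6 in HF-SC GFP (26.3%) and 1 in HF-SC Tom (31.2%). The block changed no other count by over 1.5 times. Leaving out each mouse in turn gave 0 to 7 in HF-SC GFP and 1 to 7 in each of the other 3 comparisons with Co, 0 to 8 for HF-SC GFP against HF-SC Tom and 0 to 2 for the GFP change, the highest each time without mouse 817, where 37.2% to 45.6% of all genes passed against Co, 13.4% for HF-SC GFP against HF-SC Tom and 15.5% for the GFP change. The cause was not tested.

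Lce1m kept its call in 15 of 15 alternatives in 3 comparisons with Co and in 12 of 15 in HF-SC GFP. The sign turned for small values. In HF-SC GFP, Lce1g (0.18) was -0.13 with a pseudocount of 0.1 and -0.28 to 1.02 with a mouse left out, Lce1i (0.28) was -0.22 to 1.14 and Lor (-0.35) was -0.67 to 0.17. With a mouse left out, Lce1g in b-KCs ranged from -0.20 to 0.39 for GFP and from -0.57 to 0.13 for Tom cells. For b-KC GFP against b-KC Tom, Lce3f (0.03) was -0.11 with a pseudocount of 0.1 and -0.38 to 0.42 with a mouse left out, Lce3c (-0.14) was -0.65 to 0.46 and Lce3d (-0.35) was -0.71 to 0.082.

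No total counts per gene were used, so counting error for Lce3 in Co rests on implied reads, where 3 reads are the floor. With 3 mice a group and 1 mouse that stands apart, the Lce3 intervals are wide.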

Other observations

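Of 12 listed cross-linking and processing enzymes, 5 rose and 1 fell in GFP and 3 rose and 1 fell in Tom HF-SCs, while 2 rose and 2 fell in GFP and 1 rose and 3 fell in Tom b-KCs. Over all tested genes, 13.0% rose and 12.3% fell in GFP and 15.7% and 13.9% in Tom HF-SCs, and 12.5% and 12.0% in GFP and 15.4% and 15.3% in Tom b-KCs, so that several of the b-KC counts are near the share of all genes. By limma with Benjamini-Hochberg adjustment, Tgm1, the keratinocyte transglutaminase, rose by 3.48 (SE 0.514, adjusted p = 8.12e-05) on the log2 scale in HF-SC GFP. Casp14, a caspase of cornification, rose by 2.84 (SE 0.609, adjusted p = 0.00178) and Abca12, a lipid transporter of the granular layer, by 2.30 (SE 0.360, adjusted p = 0.00014).

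Of 15 listed transcription factors of late differentiation, 7 rose and 1 fell in GFP and 3 rose and 5 fell in Tom HF-SCs, while 0 rose and 2 fell in GFP and 0 rose and 4 fell in Tom b-KCs. Against the same shares of all genes, the 3 that rose in Tom HF-SCs and the 2 that fell in GFP b-KCs are near the background. Grhl3, a Grainyhead-like factor, rose by 3.32 (SE 0.345, adjusted p = 2.8e-06) in HF-SC GFP, Ovol1 by 2.24 (SE 0.221, adjusted p = 1.64e-06) and Zfp750 by 2.16 (SE 0.252, adjusted p = 8.7e-06). For this list the interaction test gave a higher GFP change for HF-SCs over b-KCs in 6 of 15 genes, where 3.32% of all genes passed in that direction. In the GFP change of the 10 Lce members 0 passed that test.

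Of the 9 bulge markers, 4 fell in HF-SC GFP (12.3% of all genes fell), among them Cd34 (-1.89, SE 0.351), Lgr5 (-1.68, SE 0.287) and Lhx2 (-1.66, SE 0.259). Krt15, another of the 9, has a 0 in the control HF-SCs of mouse 828 beside 11261 and 11764 FPKM for mice 810 and 825, against 3163 to 5405 FPKM in HF-SC GFP, and it did not pass the test with that 0 in the fit.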
